A study of Mus musculus with 8 samples.

Results

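Gfap, Vim, Nes and Synm, the genes of the intermediate filament proteins of astrocytes and neural progenitor cells, were examined in injured mouse spinal cord by RNA-seq. The 4 genes were chosen by name among the 54532 genes of the deposited count table, and all 4 passed the filter on low counts, as 16537 genes did in all. Cords had been taken 7 days after spinal cord injury from 4 Tia1Nestin-CKO samples, called CKO here, and from 4 Tia1f/f samples, called control. The first name is taken here to denote a conditional knockout of Tia1 by means of Nestin, and the second mice with floxed Tia1. TIA1 is an RNA-binding protein that controls translation and splicing and gathers in stress granules. Every group was injured, so nothing here compares injured with uninjured cord. The sources used here do not name the driver line, the deleted exons, or the age and sex of the mice, and they do not say that each sample came from a separate mouse. P-values therefore measure the spread between these samples, which may in part be technical.

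Intermediate filaments are rope-like polymers of the cytoplasm that give a cell mechanical strength. GFAP and vimentin are type III proteins that can polymerise on their own, whereas nestin and synemin are large proteins that join filaments built by such partners and link them to other structures. Resting astrocytes of the cord contain GFAP and little of the other 3 proteins. After injury astrocytes raise GFAP and vimentin and re-express nestin and synemin, a change that is a hallmark of reactive gliosis and of the glial scar. Vimentin is also made by fibroblasts, endothelial cells and macrophages, nestin by endothelial cells and pericytes, and synemin by muscle cells, so levels in whole cord are sums over several cell types. In such bulk samples a smaller number of cells of a type and less RNA per cell cannot be told apart.

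The windows around the annotated start sites of Gfap and Vim are shown because these 2 genes had the highest levels and were compared with each other across the libraries. They run 5′ to 3′, from 250 bases before to 50 after the RefSeq start on GRCm38.p6. Capitals mark every match, on either strand, to TATAAA, to CCAAT, to the STAT-type motif TTCNNNGAA and to the AP-1-type motif TGANTCA.
Gfap (chr11:102897151-102897450, minus strand): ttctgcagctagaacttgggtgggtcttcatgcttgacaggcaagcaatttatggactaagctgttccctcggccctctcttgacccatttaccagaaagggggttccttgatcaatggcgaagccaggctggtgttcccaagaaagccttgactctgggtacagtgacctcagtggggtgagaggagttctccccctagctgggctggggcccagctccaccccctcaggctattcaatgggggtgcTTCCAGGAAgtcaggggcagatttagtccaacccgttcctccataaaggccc
Vim (chr2:13574061-13574360, plus strand): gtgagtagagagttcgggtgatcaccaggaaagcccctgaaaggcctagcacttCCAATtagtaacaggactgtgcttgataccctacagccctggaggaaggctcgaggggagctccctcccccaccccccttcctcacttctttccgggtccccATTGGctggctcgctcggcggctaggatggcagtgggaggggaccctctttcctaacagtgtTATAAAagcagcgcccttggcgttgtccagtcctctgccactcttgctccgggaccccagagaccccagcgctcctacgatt
The Gfap window held 1 match to TTCNNNGAA, which began 2 bases before the RefSeq start, and none to the other 3 motifs. The Vim window held TATAAA 32 bases before the start and 2 matches to CCAAT, and no marked matches overlapped. Of 32851 RefSeq windows of the same length, 8.3% held TTCNNNGAA, 13.6% TATAAA, 37.4% CCAAT and 7.81% TGANTCA. The Nes window held none of the 4 motifs and the Synm window held 1 CCAAT. The Synm window contained 33 CpG dinucleotides, the Nes window 18, the Vim window 11 and the Gfap window 3, against a median of 7 over all windows. These matches describe letters only. The RefSeq start used for Gfap lay 3712 bases downstream of the 5′ end of the gene in the deposited table, that for Vim 384 bases and that for Nes 15 bases downstream, and that for Synm lay on it.

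Total counts ran from 14752733 to 17802884 per library. The library labelled control 1 stood apart from the other 7 on the first principal component, at -94.97 against 5.73 to 21.51, and had the lowest total and 18884 genes with counts, against 22434 to 23414 in the rest. Those labelled control 3 and CKO 4 stood apart on the second component, at 38.73 and 38.14 against -30.05 to 0.99. Tia1, the targeted gene, had 23.4, 27.8, 24.0 and 32.1 normalized CPM, counts scaled to the library size, in CKO libraries, against 41.9, 24.4, 31.3 and 34.2 CPM in control libraries. The groups overlapped, with an exact two-sided permutation p of 0.20, so Tia1 did not separate the labels. Its log2 fold change was -0.29 (SE 0.19), or -0.16 without control 1. The table counts the whole gene and the deleted exons are not named, so these values are no check of the deletion itself. Of the 14 astrocyte marker genes looked at, all 14 were expressed above the filter, with a summed level of 6364 to 7611 CPM in CKO and 5312 to 8255 CPM in control.

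Per base of the length listed for the gene, Gfap stood far above its partners. For each of the 4 genes that length equals the union of the exons of all its transcripts in the GENCODE M21 annotation. These number 3 to 6 per gene. The length is therefore not that of 1 transcript, and FPKM ranks and ratios between genes depend on it. Gfap had 2402 ± 428 FPKM, the count per kilobase of gene length and library size, in CKO and 2458 ± 429 FPKM in control (SD, n = 4 each), and ranked 20 among all genes by mean FPKM. Vim, at 361 ± 31.4 FPKM in CKO and 311 ± 68.7 FPKM in control, ranked 123. Nes had 11.2 ± 1.93 FPKM in CKO and 11.8 ± 3.10 FPKM in control, at rank 4192. Synm had 9.44 ± 1.93 FPKM in CKO and 7.77 ± 0.38 FPKM in control, at rank 5236. Each step from Gfap to Vim and from Vim to Nes held in 8 of 8 libraries. Nes and Synm were close, with FPKM ranges that overlapped. Nes was above Synm in 6 of 8 libraries, all except those labelled CKO 3 and CKO 4. The FPKM ratio of Nes to Synm within libraries was 1.24 ± 0.42 in CKO and 1.52 ± 0.42 in control (SD, n = 4 each). A difference between these 2 genes was not tested. The 2 self-assembling proteins were thus represented by far more transcript than the 2 that join their filaments. The 4 genes together took 1.03% to 1.41% of all counts in CKO libraries and 1.00% to 1.35% in control libraries, most of it from Gfap.

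The difference between CKO and control was within the spread of the libraries for each of the 4 genes. With edgeR's quasi-likelihood test and Benjamini-Hochberg adjustment over 16537 genes, 0 of the 4 members passed an adjusted p of 0.05, and 0 of all genes tested did (0%). At an unadjusted p under 0.05 there were 234 genes (1.42%), none of them a member. DESeq2 called 1 of 28868 genes (0.00346%), the acute-phase gene Saa3, with an adjusted p of 0.021 and an edgeR adjusted p of 1.00, and limma-voom called 0. In all 4 members the groups overlapped, as they did in all genes tested but 197 (1.19%). On average random labels would give a fraction of 0.0286 of genes without overlap, and of 0.05 under that unadjusted p. Over all 8 libraries, neither count is above what random labels would give. Without control 3 there were 1104 of 16823 genes under that unadjusted p, which is above that fraction, and 0 were called. With any other single library left out there were 196 to 380. Mean Vim and Synm were higher in CKO and mean Gfap and Nes slightly lower.

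**Figure D1:**
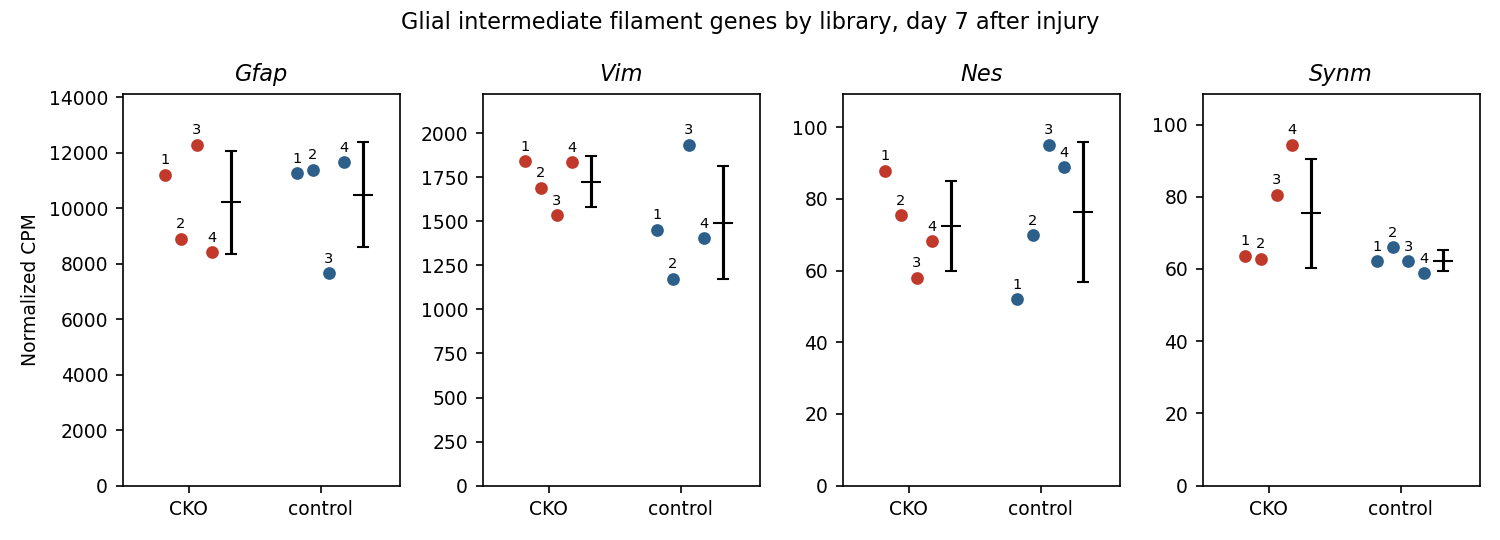
Normalized CPM (y axis, from 0) of Gfap, Vim, Nes and Synm in the 4 CKO (red) and 4 control (blue) libraries, each point 1 library with its replicate number, black bars the mean ± SD. The groups overlap in every panel, and the control libraries of Synm lie within 58.8 to 66.0 CPM while CKO 3 and CKO 4 lie above them.

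Gfap, the main filament protein of astrocytes (ENSMUSG00000020932, chromosome 11, 102887336 to 102900912, minus strand, GRCm38), had 11215, 8906, 12291 and 8413 CPM in the libraries labelled CKO 1 to 4, against 11256, 11381, 7667 and 11661 CPM in control 1 to 4. The values lay in an upper set of 5 libraries and a lower set of 3, and the lower set held both genotypes, namely CKO 2, CKO 4 and control 3. CKO against control, the log2 fold change came to -0.04, with an SE of 0.19, a 95% interval of -0.47 to 0.39, an edgeR adjusted p of 1.00 and an exact two-sided permutation p of 0.914. That interval runs from 0.723-fold to 1.31-fold, so larger changes of Gfap in either direction lie outside it. The log2 fold change turned positive without CKO 2 (0.022), CKO 4 (0.045), control 2 (0.0029) or control 4 (0.020), and was lowest without control 3, at -0.16.

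Vim, which encodes vimentin (ENSMUSG00000026728, chromosome 2, 13573927 to 13582826, plus strand), had 1842, 1689, 1534 and 1836 CPM in CKO 1 to 4, against 1452, 1175, 1935 and 1406 CPM in control 1 to 4. All 4 CKO libraries were above the mean of control, but the highest value of all was that of control 3. The spread was wider in control, with a coefficient of variation of 8.46% in CKO and 21.4% in control. CKO against control, the log2 fold change came to 0.21, with an SE of 0.17, a 95% interval of -0.17 to 0.59, an edgeR adjusted p of 1.00, an unadjusted p of 0.254 and an exact permutation p of 0.257. This value depended on single control libraries, being 0.37 without control 3, with an unadjusted edgeR p of 0.041, and 0.11 without control 2. Since control 3 holds the highest Vim, leaving it out can only widen the gap, and that p is no support for a rise.

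Nes, which encodes nestin (ENSMUSG00000004891, chromosome 3, 87971078 to 87980451, plus strand), also gives its name to the knockout. It had 87.9, 75.4, 58.0 and 68.1 CPM in CKO 1 to 4, against 52.0, 69.8, 95.1 and 88.8 CPM in control 1 to 4. The lowest and the highest libraries were both control, and the CKO values lay between them. CKO against control, the log2 fold change came to -0.08, with an SE of 0.20, a 95% interval of -0.53 to 0.37, an edgeR adjusted p of 1.00 and an exact permutation p of 0.714. It was -0.22 without control 1, and turned positive without CKO 3 (0.014), control 3 (0.047) or control 4 (0.0027). Nes had 748 to 1714 raw counts per library, so counting error was small beside this spread.

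Synm, which encodes synemin (ENSMUSG00000030554, chromosome 7, 67730160 to 67759742, minus strand), had the smallest unadjusted p of the 4 genes. It had 63.7, 62.9, 80.6 and 94.4 CPM in CKO 1 to 4, against 62.2, 66.0, 62.1 and 58.8 CPM in control 1 to 4. CKO 3 and CKO 4 stood above every control library, and CKO 1 and CKO 2 lay among them. CKO against control, the log2 fold change came to 0.28, with an SE of 0.16, a 95% interval of -0.07 to 0.62, an edgeR unadjusted p of 0.107, an adjusted p of 1.00 and an exact permutation p of 0.143. Without CKO 4 it was 0.15. The spread ran the opposite way to that of Vim, with a coefficient of variation of 20.0% in CKO and 4.68% in control. Among the 10604 genes of at least 10 CPM, the within-group spread of Synm on the log2 scale lay at percentile 30.1, of Vim at 37.7, of Gfap at 53.0 and of Nes at 67.5.

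**Figure D2:**
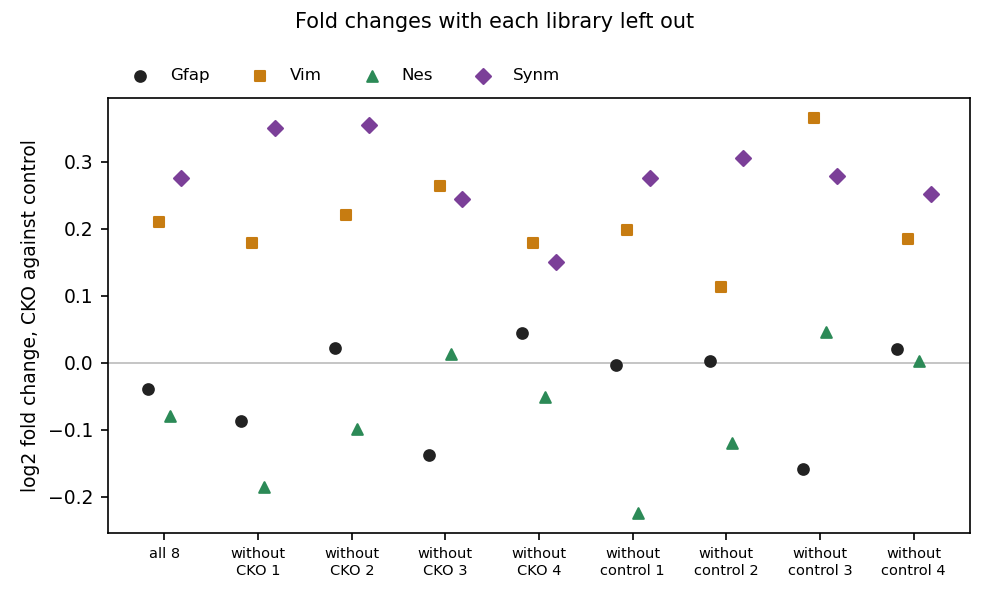
log2 fold change of each member, CKO against control (y axis), from all 8 libraries and with each library left out in turn (x axis). Vim and Synm stay above 0 throughout, from 0.11 to 0.37 and from 0.15 to 0.35, while Gfap and Nes lie on either side of 0.

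Few genes overlapped the members. The span of Gfap lies within that of the long noncoding gene Gm26668 on the opposite strand, which shared 0 exonic bases with it in GENCODE M21 and had 0 to 6 counts per library. The span of Synm overlaps Ttc23 on the opposite strand, with 84 exonic bases shared and 123 to 236 counts, and Gm45102, with 426 exonic bases shared and 0 to 3 counts. No gene of the table overlapped Vim or Nes. Whether counting used the strand is not stated in the sources, so reads in the bases shared by Synm and Ttc23 cannot be told apart.

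Gfap and Vim, the members with the highest levels, were set against each other library by library. The FPKM ratio of Gfap to Vim was 6.85, 5.93, 9.01 and 5.15 in CKO 1 to 4, against 8.72, 10.9, 4.46 and 9.33 in control 1 to 4. It was below 7 in CKO 1, CKO 2, CKO 4 and control 3 and above 8.7 in CKO 3 and the other 3 control libraries. The mean ratio was 6.73 ± 1.67 in CKO and 8.35 ± 2.75 in control (SD, n = 4 each), and the ranges overlapped. Over the 8 libraries log2 CPM of Gfap and Vim had Pearson's r = -0.68 (exact permutation p = 0.067, adjusted over 6 pairs of members 0.404) and Spearman's rho = -0.76 (exact permutation p = 0.037, adjusted 0.221). Without CKO 4 and control 3, the libraries farthest from the median of Gfap, r was -0.36 (exact permutation p = 0.440), a step that also narrows the range of Gfap. Within the lower set of 3 Gfap libraries Vim had 1689 to 1935 CPM, and within the upper set of 5 it had 1175 to 1842 CPM, so r over all 8 mainly sets these against each other, and neither set has enough libraries for an r of its own. Without control 1 it was -0.67 (exact permutation p = 0.0996).

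**Figure D3:**
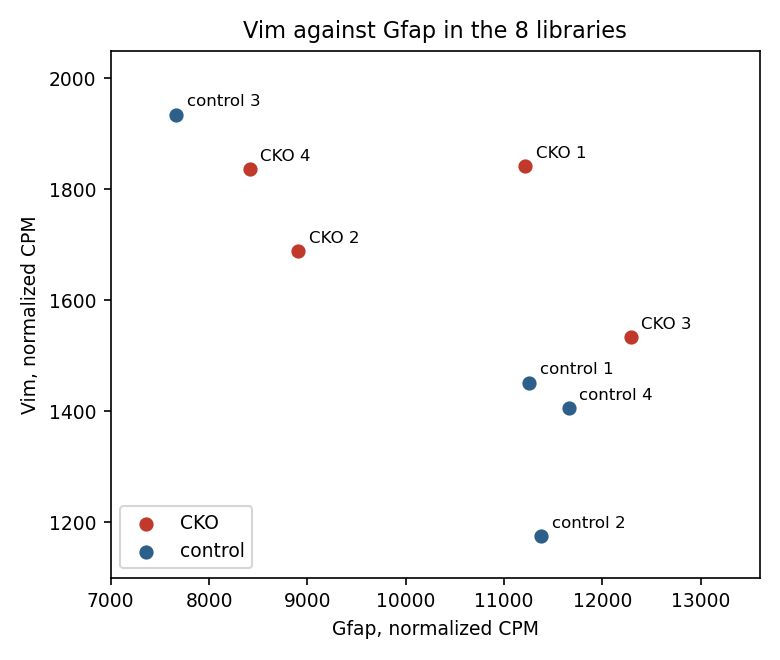
Normalized CPM of Vim (y axis) against Gfap (x axis) in the 4 CKO (red) and 4 control (blue) libraries, with axes that do not start at 0. The libraries labelled control 3, CKO 4 and CKO 2 form a group of low Gfap, at 7667 to 8906 CPM, and the lowest Vim, at 1175 CPM, is that of control 2.

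No other pair of members passed either. Nes and Synm had r = -0.40 (exact permutation p = 0.326) and rho = -0.57 (exact permutation p = 0.151). Without control 1, which had the lowest Nes, this r was -0.73 (exact permutation p = 0.062, adjusted 0.299). In FPKM, Nes was 1.71 and 1.48 times Synm in CKO 1 and CKO 2 and 0.89 times in both CKO 3 and CKO 4, against 1.03, 1.31, 1.89 and 1.87 times in control 1 to 4. Vim and Nes had r = 0.39 (exact permutation p = 0.332), Gfap and Nes r = -0.39 (exact permutation p = 0.330), Vim and Synm r = 0.23 (exact permutation p = 0.577) and Gfap and Synm r = -0.16 (exact permutation p = 0.714). The adjusted p of these 5 pairs ran from 0.498 to 0.714. Both genes of a pair share the scaling factor of each library, so these points are not free of common error.

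None of the other intermediate filament genes tested passed the threshold either. Of 15 genes on this list, 13 passed the filter, 6 of them higher and 7 lower in CKO and 0 called, and their median log2 fold change was -0.10 (-0.20 to 0.12 with single libraries left out), against -0.01 over all genes tested, of which 7953 were higher and 8584 lower. The keratin genes Krt8 and Krt18 did not pass, with at most 8 and 11 counts per library. Per length the neurofilament light chain gene Nefl, of neurons, was the highest of the list, at 79.9 ± 10.2 FPKM in CKO and 111 ± 57.9 FPKM in control (SD, n = 4 each), below Vim and above Nes. Nefl had a log2 fold change of -0.49 (SE 0.30), which was -0.07 without control 2, and the heavy chain gene Nefh -0.34 (SE 0.28). The gene of desmin, Des, the type III filament of muscle and a partner of synemin, ran from 1.70 to 36.4 FPKM over the 8 libraries, a far wider range than the 7.33 to 11.9 FPKM of Synm. Lmnb1, which encodes lamin B1 of the nuclear envelope, had the smallest unadjusted p of the list, with 33.9 ± 3.19 CPM in CKO and 27.4 ± 4.65 CPM in control and a log2 fold change of 0.31 (SE 0.16, edgeR unadjusted p = 0.080).

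**Figure D4:**
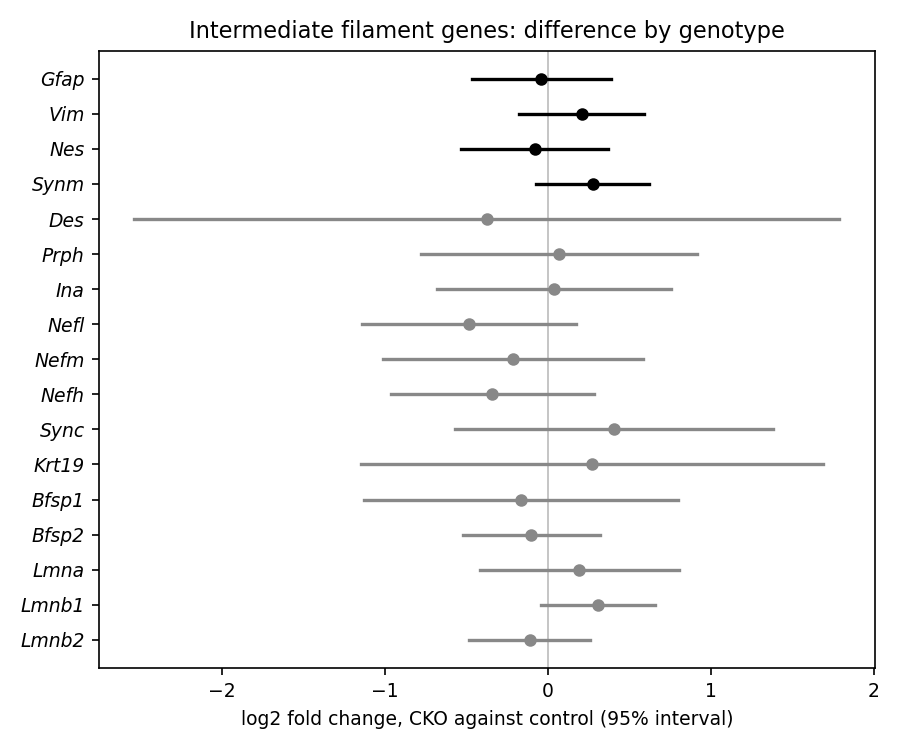
log2 fold change with its 95% interval, CKO against control (x axis), of the 4 members (black) and of the 13 other intermediate filament genes tested (grey). Every interval includes 0, and the widest is that of the muscle gene Des, from -2.54 to 1.79.

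Genes whose products bind, modify or regulate these filaments held 0 called genes as well. Of 16 linkers and binding partners 15 were tested, 8 higher and 7 lower in CKO and 0 called, and their median log2 fold change was 0.04, or 0.21 without control 3. Hspb1 and Cryab, small heat shock proteins that bind GFAP and vimentin filaments, had the smallest p. Hspb1 had 307 ± 62.8 CPM in CKO and 195 ± 25.99 CPM in control, a log2 fold change of 0.65 (SE 0.17, edgeR unadjusted p = 0.0033, adjusted p = 1.00), and was the only list member of the 15 whose groups did not overlap, against the 1.19% of all genes. Cryab had 421 ± 63.6 CPM in CKO and 335 ± 37.3 CPM in control (log2 fold change 0.33, SE 0.16), and the plakin gene Ppl a log2 fold change of 0.52 (SE 0.29). Of 19 kinases, proteases and other modifying enzymes all were tested, 11 higher and 8 lower, 0 called, with a median of 0.05. The 3 of smallest p were Cdk5r1, an activator of the kinase CDK5, at -0.33 (SE 0.22), the phosphatase subunit gene Ppp2ca at -0.24 (SE 0.18) and the calpain gene Capn2 at 0.15 (SE 0.13).

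Cytokine and transcription factor genes that regulate Gfap, Vim or Nes were measured alongside. Cytokines of the interleukin-6 family and the transcription factor STAT3, known to induce Gfap, are among them. The list also holds other regulators, so its counts do not describe that route alone. Of 36 cytokine and transcription factor genes on this list, 34 were tested, 19 higher and 15 lower, 0 called, with a median log2 fold change of 0.03. Lif, a cytokine of that family, was low, with 29 to 67 counts per library. It had 3.25 ± 0.36 CPM in CKO and 2.28 ± 0.35 CPM in control, without overlap of the groups (1 of 34 genes, against 1.19% of all), and a log2 fold change of 0.51 (SE 0.26, edgeR unadjusted p = 0.073). Its receptor gene Lifr had one of -0.33 (SE 0.18), and Socs3, a feedback inhibitor induced by STAT3, one of 0.59 (SE 0.31). Lif, Lifr and Socs3 were the 3 genes of smallest p on the list. Stat3 itself had 0.05 (SE 0.16), and Jak1, Jak2 and Il6st had 0.02 (SE 0.14), -0.01 (SE 0.13) and -0.05 (SE 0.15). Il6 and Cntf did not pass the filter.

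Cell type markers were set beside the members across libraries. A list's level is the mean log2 CPM of its tested genes, each relative to its own mean over the 8 libraries. The levels of 10 cell type lists were set against the 4 members, 40 relations in all, a comparison chosen after the values were seen, and none passed after adjustment. Vim had its strongest relation with the neuron list, of the opposite sign, with r = -0.90 (exact permutation p = 0.0024, adjusted 0.094) and rho = -0.81 (exact permutation p = 0.022, adjusted 0.329). Without control 2 and control 3 that r was -0.69 (exact permutation p = 0.147), and without control 1 it was -0.90. With the endothelial list Vim had r = 0.69 (exact permutation p = 0.056, adjusted 0.259). That r was 0.89 without control 1 (exact permutation p = 0.0091, adjusted 0.183) and 0.54 without control 2 and control 3 (exact permutation p = 0.260). With the fibroblast and the microglia and macrophage lists Vim had r = 0.52 and 0.43 (exact permutation p = 0.191 and 0.290). By r, Gfap had its strongest relation with the other astrocyte genes, with r = 0.79 (exact permutation p = 0.013, adjusted 0.234). Its rho with them was 0.76 (exact permutation p = 0.037, adjusted 0.329), and r was 0.64 (exact permutation p = 0.175) without CKO 4 and control 3. With the neuron list Gfap had the same rho, 0.76, and r = 0.61 (exact permutation p = 0.088, adjusted 0.281). With the ependymal and neural stem cell list it had r = 0.71 (exact permutation p = 0.052, adjusted 0.259), but -0.01 without CKO 4 and control 3. Vim had r = -0.71 with that astrocyte list (exact permutation p = 0.045, adjusted 0.259) and rho = -0.76 (exact permutation p = 0.037, adjusted 0.329). Gfap had r = 0.78 with the oligodendrocyte list (exact permutation p = 0.018, adjusted 0.234) and rho = 0.60 (exact permutation p = 0.132, adjusted 0.378), but r = 0.03 without CKO 4 and control 3. Nes had r = -0.71 with the astrocyte list (exact permutation p = 0.044, adjusted 0.259) and rho = -0.60 (exact permutation p = 0.132, adjusted 0.378), but r = -0.22 without control 1 and control 3. The libraries left out here are those farthest from the median of the member, so its range is narrowed as well.

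The library labelled control 3 had the lowest Gfap and the highest Vim and Nes, and it also had the lowest level of astrocyte genes, at -0.36, of oligodendrocyte genes, at -0.61, and of neuron genes, at -0.37. Control 3 was lowest in the ependymal and neural stem cell list as well, at -0.46. It was highest in the endothelial list, at 0.31, the pericyte and smooth muscle list, at 0.40, and the skeletal muscle list, at 2.45. Its fibroblast level, at 0.59, was also the highest, followed by 0.46 in CKO 4, which had the next lowest Gfap and a high Vim. CKO 2, the other library of the lower Gfap set, went against this, with a fibroblast level of -0.21 and an oligodendrocyte level of 0.12. The library labelled control 2, with the lowest Vim, had the highest neuron level, at 0.71, and the lowest microglia and macrophage level, at -0.46. The part of these cell type levels in the values of Gfap and Vim was not tested. Skeletal muscle genes varied most, with summed levels of 18.2 to 490 CPM in CKO and 29.5 to 756 CPM in control and Tnnc2 listed at 0 in every library. Synm, which muscle also expresses, had r = 0.06 with that list (exact permutation p = 0.894) and rho = 0.00, and its highest library, CKO 4, had a muscle level of -0.88. The part of muscle in the values of Synm was not tested.

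**Figure D5:**
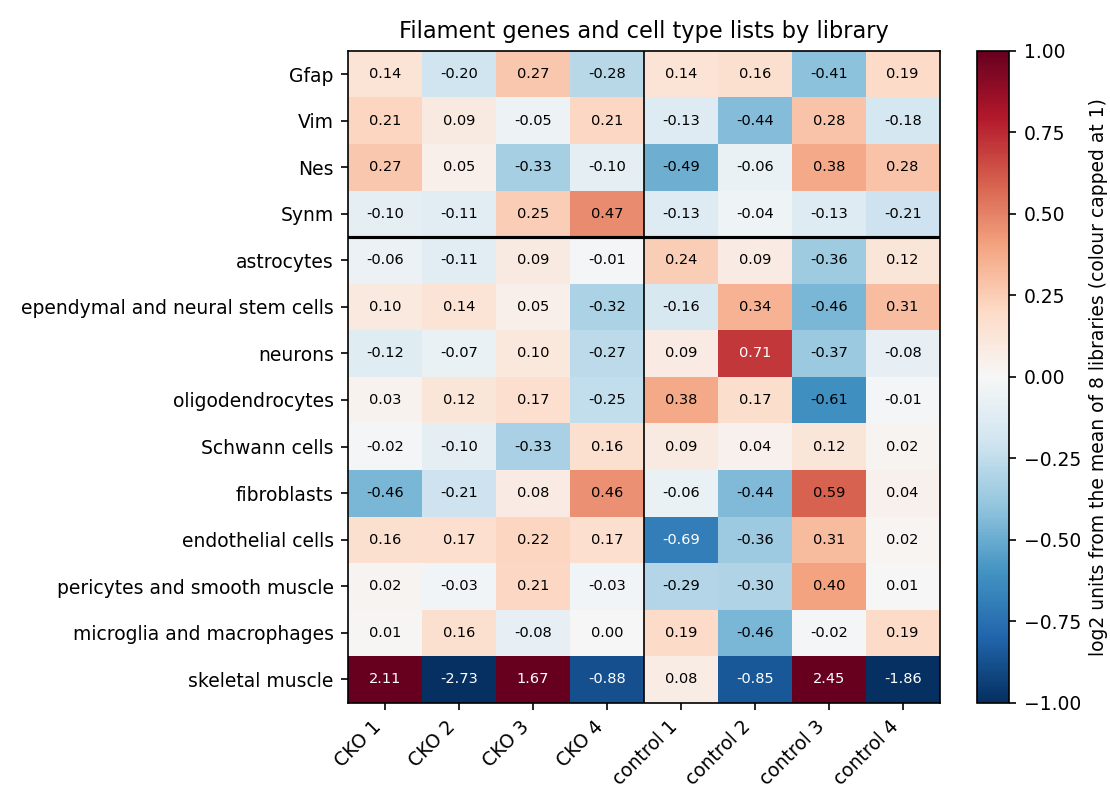
Distance from the mean of the 8 libraries in log2 units (colour capped at 1, value in each cell) for the 4 filament genes and the 10 cell type lists, in CKO libraries on the left and control libraries on the right. Gfap is lowest in control 3 and CKO 4, where the fibroblast list is high and the oligodendrocyte list is low, whereas CKO 2, next in Gfap, has levels of -0.21 and 0.12 for these lists.

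By genotype, the cell type lists held 0 called genes in each of the 10. Most of their medians depended on single libraries, and over all 14 lists the median changed sign in 10 when 1 library was left out. Of 14 astrocyte genes 6 were higher and 8 lower in CKO, and the median log2 fold change was -0.11, or 0.039 without control 1. The astrocyte genes of smallest p were the water channel gene Aqp4, at 647 ± 122 CPM in CKO and 977 ± 540 CPM in control (log2 fold change -0.59, SE 0.32, but -0.15 without control 1), the connexin gene Gja1 (-0.29, SE 0.17) and the growth factor receptor gene Fgfr3 (-0.28, SE 0.16). Of 13 ependymal and neural stem cell genes tested, out of 14, 3 were higher and 10 lower, with a median of -0.16. Hes5, a target of Notch, had 0.82 (SE 0.44), Rarres2 -0.24 (SE 0.26) and Cd24a -0.16 (SE 0.18). The level of Hes5 was low, at 1.11 ± 0.51 CPM in CKO and 0.63 ± 0.09 CPM in control, with 9 to 29 counts per library. Of 10 endothelial genes, a cell type that makes vimentin and nestin, 8 were higher and 2 lower, with a median of 0.38 (0.27 to 0.57 with single libraries left out), led by Vwf at 0.59 (SE 0.26), Ly6c1 at 0.43 (SE 0.20) and Erg at 0.74 (SE 0.42). Without control 1 Vwf had 0.39 and Erg 0.44. The endothelial level was 0.16 to 0.22 in CKO and -0.69 to 0.31 in control, where control 1 was lowest.

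Of 10 fibroblast genes 4 were higher and 6 lower in CKO, and the median log2 fold change was -0.12, or 0.12 without control 3, and Col1a2 had -0.24 (SE 0.23), Postn -0.30 (SE 0.31) and Fbln1 0.27 (SE 0.32). Of 10 pericyte and smooth muscle genes 6 were higher and 4 lower, with a median of 0.05, and Abcc9 had -0.58 (SE 0.31), Tagln 0.45 (SE 0.37) and Kcnj8 0.30 (SE 0.25). Of 11 microglia and macrophage genes 6 were higher and 5 lower, with a median of 0.06, and Cd68 had 0.30 (SE 0.20), Aif1 -0.29 (SE 0.19) and Tmem119 0.20 (SE 0.18). Of 10 neuron genes 1 was higher and 9 lower, with a median of -0.25 that was 0.020 without control 2. Snap25, Slc17a6 and Gad1 had -0.49 (SE 0.30), -0.49 (SE 0.30) and -0.34 (SE 0.21), and without control 2 Snap25 had -0.15 and Slc17a6 -0.18. Of 8 oligodendrocyte genes 3 were higher and 5 lower, with a median of -0.11 that was 0.18 without control 1, and Mobp had 0.36 (SE 0.18), Mbp 0.20 (SE 0.16) and Mag 0.21 (SE 0.22). Of 8 Schwann cell genes 2 were higher and 6 lower, with a median of -0.15, and Ncmap had -0.71 (SE 0.20) without overlap of the groups (1 of 8 genes, against 1.19% of all) and Prx -0.48 (SE 0.24). Of 9 skeletal muscle genes tested 4 were higher and 5 lower, with a median of -0.30 that was 1.91 without control 3, and Myh4, Ckm and Actn3 had 1.42 (SE 1.19), 0.70 (SE 1.28) and 0.48 (SE 1.05).

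For each member the 5 genes most like it were named, by Pearson's r of log2 CPM over the 8 libraries among 10603 genes of at least 10 CPM. These r are the highest of a long list and are given as a description. The order was not stable, since without control 1 the same genes held ranks from 1 to 35. Gfap was followed most closely by Hepacam, a cell adhesion gene of glia, at r = 0.976, with 0.983 and rank 3 without control 1. The next were Sec14l5 (0.969), Kcnip1 (0.964), Ndufs7, a subunit of respiratory complex I (0.963), and Timp4, an inhibitor of metalloproteinases (0.963). Vim was followed by the translation initiation factor subunit gene Eif3c, at 0.991, with 0.992 without control 1, and by Plp2 (0.972), Pxk (0.961), the annexin gene Anxa7 (0.961) and the transcription factor gene Bhlhe40 (0.958). Nes was followed by the metalloproteinase gene Mmp15 (0.970), by Lmnb2 (0.966), which encodes lamin B2 and is itself an intermediate filament gene, by Aurkb (0.932), whose kinase phosphorylates vimentin in dividing cells, and by Thbs3 (0.927) and Rit1 (0.926). Without control 1 the r of Nes with Aurkb was 0.881, and with Lmnb2 0.962. Synm was followed by R3hdm2 (0.941), the inositol phosphatase gene Ocrl (0.922), the epoxide hydrolase gene Ephx2 (0.916), Zfp9 (0.901) and Eml1 (0.889). No member was among the 5 genes most like another member.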

How the data were processed

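Per the labels, total RNA of spinal cord came from a TRIzol extraction, and the library kit was NEBNext Ultra RNA, whose strand setting is not stated. The authors deposited raw read counts per gene for 54532 mouse genes, with 1 column per library, and, in a second table, FPKM. The submitters' processing notes list featureCounts 1.5.0-p3, HISAT2 2.0.5, fastp, CASAVA 1.8 and DESeq2 1.20.0 without roles, and a human genome build, while the deposited gene identifiers are those of mouse. The 4 genes have the same start and end in GENCODE M21 on GRCm38, and coordinates are given so. The deposited FPKM are counts over gene length, scaled within each library by a constant of 0.971 to 1.03 times its total.

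Counts were analysed with edgeR 4.0.16 (R 4.3.3). The filter was filterByExpr (min.count 10, min.total.count 15), libraries were scaled by TMM, and CKO was tested against control with the quasi-likelihood F test (robust=TRUE) with genotype as the only term, adjusted over 16537 genes at a threshold of 0.05. The SE is the size of the log2 fold change divided by the square root of F. The edgeR step was also tested on simulated data with known changes. It called 4% of the genes changed 1.5-fold, 41.7% of those changed 2-fold, 76.6% at 3-fold and 89.8% at 4-fold. There were 7 false calls. Small changes would thus mostly go uncalled. Single values were compared by exact two-sided permutation of normalized CPM over 70 assignments, whose smallest possible p is 0.0286, and correlations by exact permutation over 40320 pairings, on log2 CPM (prior count 2). No replicate pairing is stated in the labels.

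The members and the 14 gene lists were chosen with earlier results of these data known. Named are the members, Tia1, up to 3 genes of smallest p per list, the 5 genes most like each member and genes overlapping a member. For the Schwann cell list 1 such gene is not reported here. Nefl as the highest of its list, Des, Krt8, Krt18, Il6, Cntf, Stat3, Jak1, Jak2, Il6st, Tnnc2 and Saa3 were named after their values were seen. Promoter windows are RefSeq's on GRCm38.p6. Alternatives were DESeq2 size factors, other filters, each library left out, the libraries labelled control 2 and CKO 4 left out, the replicate block, DESeq2 1.42.0, limma-voom with and without library weights, and limma-trend (limma 3.58.1) on log2(FPKM + 1) and log2(FPKM + 0.1). Leaving out the libraries labelled control 3 and CKO 4 was added after the data were seen.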

Additional observations from a re-analysis of the deposited data

Results flagged for a closer look

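Of 134 groups of 4 libraries examined, over the members, their ratios, the lists and the named genes, 5 had 1 library set far from the other 3, where chance gives about 1 group in 20. Among control libraries, Gfap was lowest in control 3, at 7667 CPM, and lay at 11256 to 11661 CPM in the rest. The FPKM ratio of Gfap to Nes was 322 in the library labelled CKO 3, against 180 to 194 in the other CKO libraries. Control 3 also had the highest value of the fibroblast gene Fbln1 in its group, 99.5 CPM, with 55.3 to 61.1 CPM in the rest. The neurofilament gene Nefh reached 259 CPM in control 2, while the rest of its group had 97.3 to 121 CPM. The fibroblast gene Postn reached 86.4 CPM in CKO 3, while the rest of its group had 55.1 to 57.1 CPM.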

How the results depend on the processing

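Under 19 alternatives each, Vim and Synm kept a log2 fold change above 0, from 0.08 to 0.37 and from 0.15 to 0.35, and no member passed an adjusted p of 0.05. Gfap changed sign, to 0.084 without the libraries labelled control 2 and CKO 4, and ran from -0.16 to 0.045 when single libraries were dropped. Nes changed sign, to 0.074 without those labelled control 3 and CKO 4, and ran from -0.22 to 0.047 when single ones were. The r of Gfap with Synm was 0.39 without the 2 libraries farthest from the median of Gfap. The count of genes called was 1 with the DESeq2 Wald test and 0 otherwise. Without control 3, 1104 of 16823 genes had an unadjusted edgeR p under 0.05, and with no filter 755 of 28894. With the replicate block 0 genes were called and the log2 fold changes of Gfap, Vim, Nes and Synm were -0.04, 0.23, -0.06 and 0.26. Deviations of same-numbered libraries correlated at -0.33 to 0.05 across genes, and 0 of the 4 CKO libraries correlated best with its own number, so the numbers were not taken as pairs.

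With each library left out, the median changed sign in 10 of 14 lists, and 31 of the 42 genes named from them changed sign or moved by over 1.5 times. List medians moved by more than the within-group SD of the list level in 7 of 266 cases. The median of the linkers ran from -0.062 to 0.21, of the cytokine and transcription factor list from -0.058 to 0.075 of the neuron list from -0.37 to 0.020, of the oligodendrocyte list from -0.28 to 0.18, of the fibroblast list from -0.26 to 0.12, of the astrocyte list from -0.23 to 0.039, of the microglia and macrophage list from -0.10 to 0.13, of the pericyte list from -0.054 to 0.24, of the other filament genes from -0.20 to 0.12 and of the muscle list from -0.98 to 1.91. Without control 2 and CKO 4 the cytokine list had -0.10 and the microglia and macrophage list -0.19, and without control 3 and CKO 4 the enzyme list had 0.11 and the muscle list 2.15. None of the 43 other genes tested by alternatives, 3 from each list and Tia1, passed an adjusted p of 0.05 under any. With each library left out, sign changed for Nefh (-0.49 to 0.086; without control 2), Postn (-0.50 to 0.061; control 3), Fbln1 (-0.021 to 0.51; CKO 4), Ckm (-0.011 to 2.41; CKO 3) and Actn3 (-0.25 to 1.66; CKO 1). It also changed without control 2 and CKO 4 for Nefh (0.13) and Fbln1 (-0.11), without control 3 and CKO 4 for Postn (0.12), and with library weights for Cd24a (0.042). The cause was not tested. Depth limited no member, the lowest count being 748.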
